A study of Gossypium hirsutum with 8 samples.

Results

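RCA1, Glp1, CBP2 and CBP3 are 4 genes of upland cotton (Gossypium hirsutum) chosen by their signals in the 4 control arrays, which were far higher in leaf than in root. A probe set is a group of short oligonucleotides on the Affymetrix cotton array that reads 1 transcript or several alike. All probe sets were taken whose single gene in the platform's probe table carries 1 of these names as a RefSeq synonym, which gave 4 probe sets, 1 for each gene, of 24029 tested. The probe table gives a single gene to 697 probe sets, which stand for 520 genes in all. The 8 arrays measured total RNA of cultivar Sicot 71, grown in a glasshouse to the stage of a second leaf, and fell into 4 groups of 2 biological replicates. Control root and control leaf came from plants left as they had been growing. Flooded root was the whole root after 4 h with the root system under water, and flooded leaf was the first leaf after 24 h of the same treatment. Tissue and duration therefore changed together among the flooded groups. The number of plants behind an array is not stated in the labels, so the p-values measure only the spread between these arrays.

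Rubisco activase, encoded by RCA1 (LOC107942112), is a chloroplast ATPase that frees the active sites of rubisco from sugar phosphates that block them, and so keeps carbon fixation running in the light. Germin-like proteins such as Glp1 (LOC107907099) belong to the cupin superfamily and are mostly glycoproteins of the cell wall, some of which have oxalate oxidase or superoxide dismutase activity in other plants. The tables used here pair LOC107913771 with CBP2 and LOC107958067 with CBP3 and give no product for either, so what the letters stand for is not stated and no role is given to these 2 genes. The probe set of CBP2 has the suffix by which the manufacturer marks probes that also match other sequences, and that of CBP3 the suffix for probes shared by several transcripts. The tetraploid genome holds a copy of most genes in each of its subgenomes, so all 4 signals may include copies.

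Signals were on the log2 scale as deposited. Array medians were 6.14 to 6.17 in root and 5.32 to 5.41 in leaf, and the lowest signals were 3.99 to 4.10 and 2.49 to 2.65. The tissues were thus not on a common scale. Control leaf minus control root had a median of -1.08 over all probe sets, and of -0.08 after quantile normalization over the 8 arrays. By contrast, 27 probe sets for bacterial and phage transcripts that the manufacturer's protocol adds to each sample had a median 0.36 higher in control leaf. With 2 arrays in each group the smallest p of a two-sided exact permutation test is 0.333. Every test here is therefore that of limma, with a spread shared by the 4 groups and moderated over all probe sets.

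RCA1 read 14.51 and 14.60 in control leaf, 14.62 and 14.66 in flooded leaf, and in root 5.25 and 5.89 without and 5.22 and 5.24 with flooding. All 4 leaf arrays lay at least 8.62 above all 4 root arrays. On the leaf arrays RCA1 ranked between 3 and 6 from the brightest of the 24029 probe sets, and on the root arrays between 13509 and 16700, a rank that also depends on how strongly its probes bind. CBP2 read 14.49 and 14.45 in control leaf, 14.49 and 14.56 in flooded leaf, and in root 5.67 and 6.48 without and 6.32 and 5.96 with flooding. Its leaf arrays spanned 0.11 in all, and its flooded root arrays lay between the control root arrays.

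CBP3 read 14.14 and 14.20 in control leaf and 14.09 and 14.16 in flooded leaf. In root it read 5.80 and 5.42 in the controls and 6.95 and 6.71 after flooding. Glp1 read 13.13 and 11.24 in control leaf and 10.07 and 11.42 in flooded leaf, so the higher flooded array lay above the lower control array. Its root signals were 5.003 and 4.80 in the controls and 5.12 and 4.78 after flooding. Glp1 was therefore the only 1 of the 4 whose leaf arrays differed among themselves by more than 1 log2 unit (3.06, against 0.11 to 0.15 for the others).

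**Figure D1:**
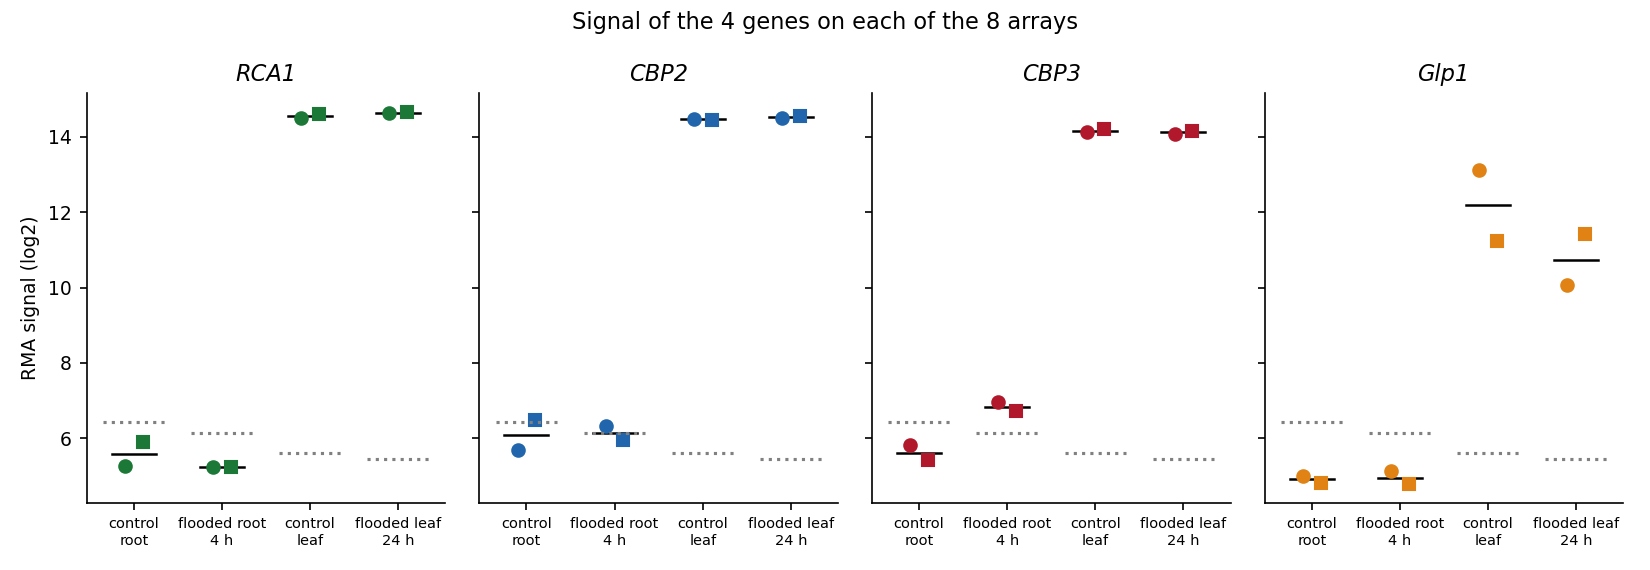
RMA signal (log2) of each gene on every array, with circles for replicate 1, squares for replicate 2, black bars for group means and dotted lines for the 95th percentile of 52 reporter probe sets in that group. RCA1, CBP2 and CBP3 sit above 14 on all leaf arrays, Glp1 is spread from 10.07 to 13.13 there, and CBP3 is above the dotted line in flooded root.

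The order of the groups was thus leaf above root for each gene, and within a tissue no gene but CBP3, in root, differed beyond the spread of the arrays by the tests given below. Control leaf exceeded control root by 8.99 for RCA1, 8.56 for CBP3, 8.39 for CBP2 and 7.28 for Glp1. These differences chose the genes and were not tested. They ranked 11, 30, 34 and 91 from the largest among all probe sets, and 261 probe sets differed by at least 32-fold in that direction. Centring each array on its median moved them to 9.75, 9.33, 9.16 and 8.05.

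**Figure D2:**
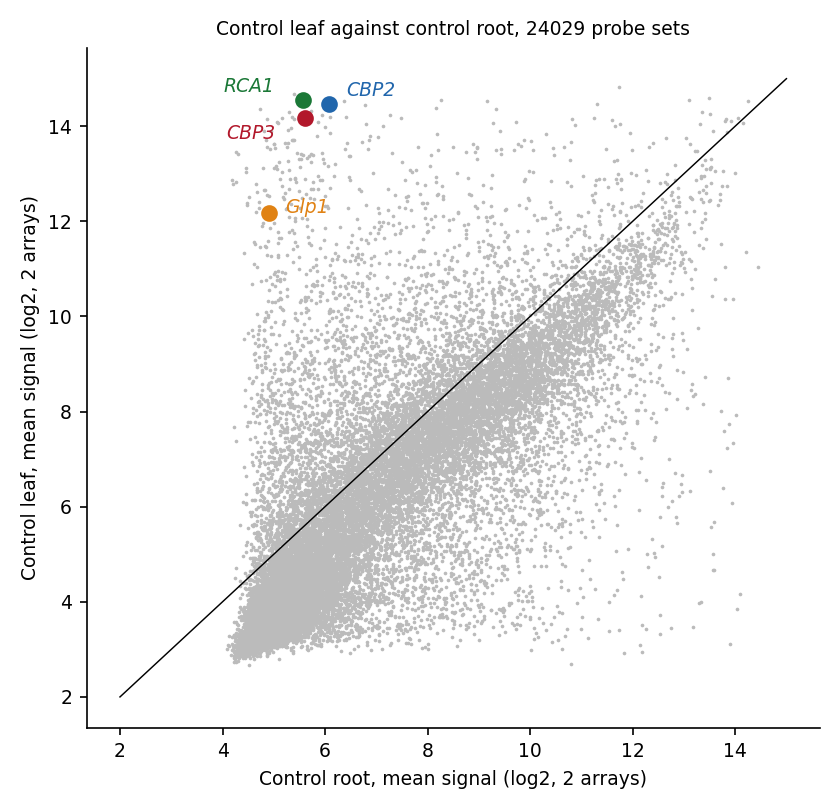
Mean control leaf signal against mean control root signal (both log2, 2 arrays each) for 24029 probe sets, with the line of equal signal. The 4 genes, coloured, lie at the upper left, between 4.90 and 6.08 in root and between 12.18 and 14.55 in leaf, and most probe sets lie below the line.

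How far the genes are off in root cannot be read from these signals, which carry no detection call. For comparison, 52 reporter probe sets, which read transcripts of common transgenes, averaged 5.49 in control root, where their 95th percentile was 6.43. After flooding their root mean was 5.26 and the percentile 6.13. The control root means of all 4 genes (5.57 for RCA1, 6.08 for CBP2, 5.61 for CBP3 and 4.90 for Glp1) lay under that percentile. In flooded root, RCA1 (5.23) and Glp1 (4.95) lay below the mean of the reporters, CBP2 (6.14) at the percentile and CBP3 (6.83) above it. If that level is background, the folds between the tissues are lower limits.

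The tissue difference was tested between the flooded groups. The rule that chose the genes did not use their arrays, but the spread in limma came from all 4 groups, the control arrays included. All 4 genes were higher in flooded leaf than in flooded root, by 9.41 for RCA1 (SE 0.23, limma adjusted p = 1.5e-07), 8.39 for CBP2 (SE 0.28, limma adjusted p = 4.6e-07), 7.29 for CBP3 (SE 0.20, limma adjusted p = 2.2e-07) and 5.79 for Glp1 (SE 0.63, limma adjusted p = 0.00013). In this comparison 11.8% of all probe sets were called higher in leaf. Of the calls, 14.8% were higher as deposited and 46.3% after quantile normalization over the 8 arrays. The flooded tissues also differ in the hours under water.

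In the first leaf, 24 h of flooding left no call among the 4 genes in limma (0 of 4 at an adjusted p under 0.05), where 5.25% of all probe sets were called, 2.21% as higher and 3.05% as lower. At an unadjusted p under 0.05 the count was also 0, where 19.2% of all probe sets passed, and it was 1 (Glp1) under 6 alternatives: limma-trend, array weights, the filter on low values, the fit without flooded leaf replicate 2 or control leaf replicate 2, and the exchanged replicate block. RCA1 moved from 14.55 ± 0.07 to 14.64 ± 0.03 (SD, n = 2), a log2 change of 0.09 with a 95% interval from -0.44 to 0.62 (limma adjusted p = 0.91). In linear terms the interval runs from 0.735 to 1.54 times the control. CBP2 moved from 14.47 ± 0.03 to 14.53 ± 0.05 (SD, n = 2), a change of 0.06 with an interval from -0.59 to 0.71 (limma adjusted p = 0.96). CBP3 stood at -0.05 with an interval from -0.51 to 0.41 (limma adjusted p = 0.95). For these 3 genes a fall of more than 1.51 times lies outside every interval. These intervals take their spread from the root arrays too. The SE was 0.23 for RCA1, 0.28 for CBP2 and 0.20 for CBP3. With only the 4 leaf arrays in the fit it was 0.15, 0.14 and 0.14. Control root was the most spread of the 4 groups (root mean square SD 0.48, against 0.19 to 0.32 in the others). The median absolute change was 0.25 over all probe sets and 0.08 over the 46 with a leaf mean of at least 14, as these 3 genes have. The control leaf arrays are among those on which all 4 genes were chosen for high signals. The leaf comparison is therefore not independent of the choice and is a description of stability.

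Glp1 stood lower in flooded leaf, at 10.74 ± 0.95 against 12.18 ± 1.33 (SD, n = 2), a change of -1.44 with an interval from -2.91 to 0.02 (limma adjusted p = 0.27). The interval covers a fall of 7.50-fold and no change. The control leaf arrays served to choose the gene for high signals there, so the gap is not independent of the choice. The gap rests on single arrays, being -0.50 without control leaf replicate 1, -0.77 without flooded leaf replicate 1, -2.11 without flooded leaf replicate 2 and -2.39 without control leaf replicate 2. Between arrays of the same number it was -3.06 for number 1 and 0.18 for number 2. The spread of Glp1 exceeded that of 99.5% of probe sets in control leaf and of 99.9% in flooded leaf. Only 6 probe sets, Glp1 among them, were at least as spread in both leaf groups.

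**Figure D3:**
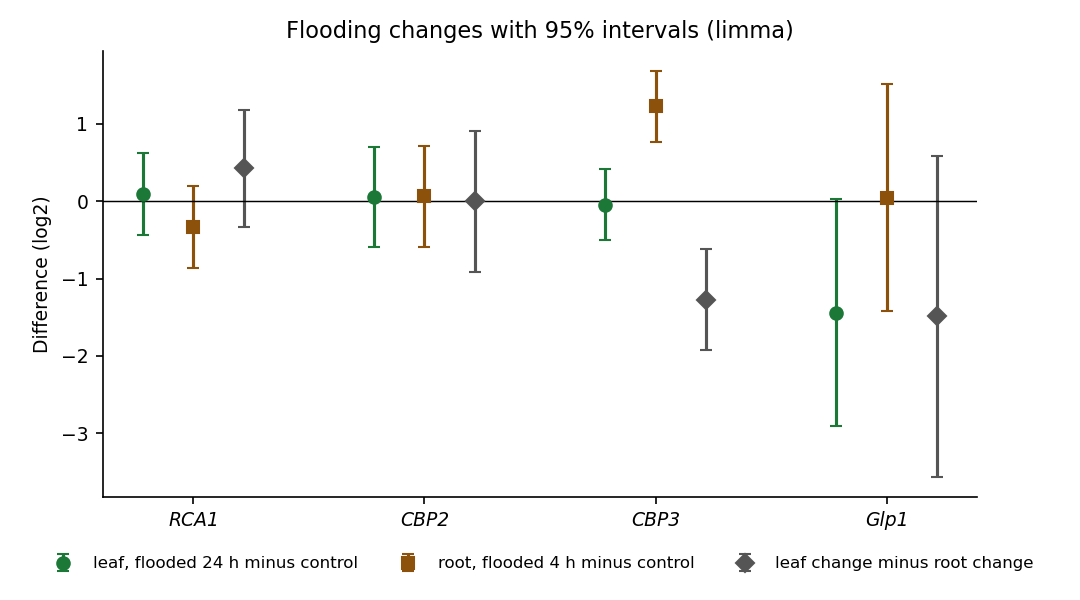
Log2 difference between flooded and control arrays in leaf (circles) and root (squares) and the leaf change minus the root change (diamonds, a description), with 95% intervals from limma. Of the flooding changes, that of CBP3 in root (1.22) has an interval clear of 0, and Glp1 has the widest intervals. Each interval rests on a spread shared by the root and leaf groups, not on that of a single tissue.

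The leaf signals of RCA1, CBP2 and CBP3 were measured near the top of the array's range. The brightest probe set of a leaf array read 14.72 to 14.87. Of those 46 probe sets 0 were called in either direction, and their changes ran from -0.38 to 0.29. Of the 166 with a leaf mean of at least 13, 1 rose and 0 fell, and of the 1750 with a mean of at least 10, 103 rose and 124 fell. Changes were thus smaller among the brightest probe sets as a whole, and the part of the upper end of the signal range in the values of RCA1, CBP2 and CBP3 was not tested. Glp1, with a leaf mean of 11.46, lay below that range.

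**Figure D4:**
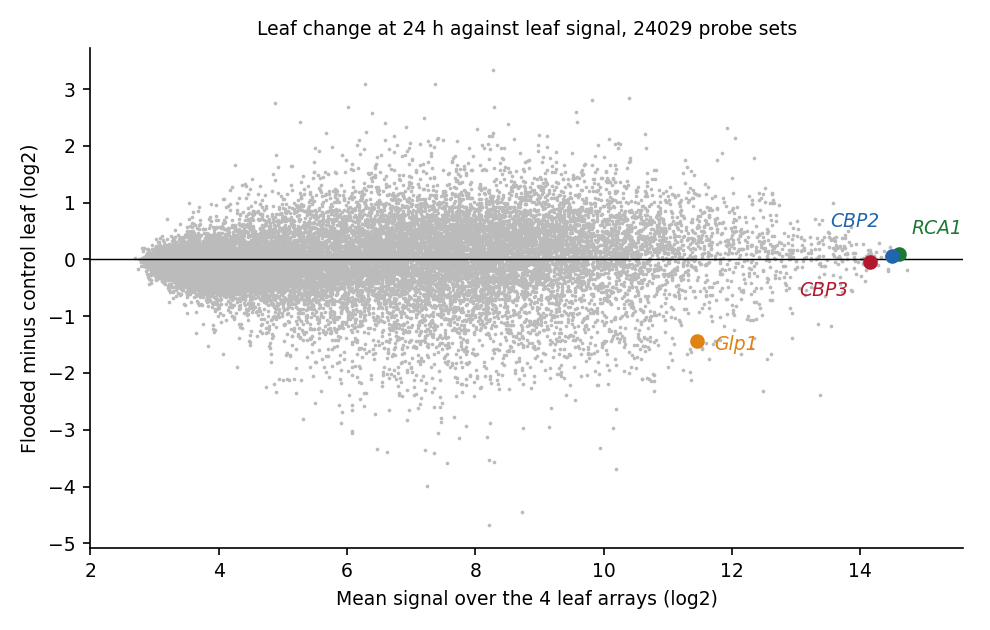
Flooded minus control leaf (log2) against the mean signal of the 4 leaf arrays (log2) for 24029 probe sets. The points narrow towards 0 at the right, where RCA1 (0.09), CBP2 (0.06) and CBP3 (-0.05) lie, and Glp1 lies at -1.44.

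In root, CBP3 rose after 4 h of flooding, from 5.61 ± 0.27 to 6.83 ± 0.17 (SD, n = 2), a 2.34-fold change (log2 change 1.22, SE 0.20, 95% interval 0.77 to 1.68, limma adjusted p = 0.0077). The flooded and control arrays of CBP3 did not overlap in root, but neither did those of RCA1 in either tissue, where RCA1 was not called. The share of all probe sets without overlap was not counted. Full separation of 2 against 2 arrays has a two-sided exact permutation p of 0.333, so nothing is read from it. Of all probe sets 10.7% were called in root, 6.40% as higher and 4.28% as lower. The control root arrays are also among those on which the genes were chosen for low signals, so this comparison is not independent of the choice. The call was lost with only the 4 root arrays in the fit (limma adjusted p = 0.073) and without flooded root replicate 1 (1.10, limma adjusted p = 0.080). As the control root signal was within the range of the reporters, the fold is a lower limit if that level is background.

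The other genes did not pass in root. RCA1 stood at -0.34 (95% interval -0.87 to 0.20, limma adjusted p = 0.47). Without control root replicate 1 it passed, at -0.66 (limma adjusted p = 0.023). CBP2 stood at 0.06 (95% interval -0.59 to 0.71), between an increase of 0.65 for arrays numbered 1 and a change of -0.52 for those numbered 2. Glp1 stood at 0.05 (95% interval -1.42 to 1.51). Its interval takes its spread from the leaf arrays too, with an SE of 0.63, against 0.22 with only the 4 root arrays in the fit. Of the 3 genes with leaf signals above 14, 1 thus rose in root and the other two did not pass. Of the 46 probe sets with a leaf mean of at least 14, 4 rose and 3 fell in root, with a median root change of 0. Of the 24 among them with a control root signal under 7, which leaves little room for a fall, 3 rose, CBP3 included, and 0 fell.

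The leaf change minus the root change contains the control leaf minus control root difference that chose the genes, so it is given as a description. It stood at -1.27 for CBP3 (the flooded tissues differing by 7.29 and the control tissues by 8.56), 0.43 for RCA1, -0.003 for CBP2 and -1.49 for Glp1. In limma 1 of the 4, CBP3, was past the threshold, where 8.26% of all probe sets were, and nothing is read from that count.

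The likeness of 2 genes over the 8 arrays was measured as the root mean square difference between their profiles, each centred on its own mean. The 8 arrays include the controls on which the 4 genes were chosen, so all such distances, those to other probe sets included, are a description. RCA1 and CBP2 were the closest pair among the 4 genes (0.44 log2 units) and RCA1 and Glp1 the farthest apart (1.58). Of the 693 other probe sets with a single gene, the one most like RCA1 was LOC107900463, at 0.15, which read 14.30 in control and 14.44 in flooded leaf and 5.29 and 5.01 in control and flooded root. Next were LOC107914060 (0.48), LOC107953769 (0.53), LOC107949818 (0.70), LOC107958776 (0.705) and LOC107906609 (1.10). Of these, 4 were also among the 3 closest to CBP2 or CBP3: LOC107914060 (0.18), LOC107958776 (0.33) and LOC107949818 (0.34) for CBP2, and LOC107949818 (0.31), LOC107953769 (0.47) and LOC107958776 (0.48) for CBP3. These loci carry no gene name in the tables used here.

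At the narrower of 2 bounds, Glp1 had fewer close profiles than each of the other genes. At the wider it had more than RCA1 and fewer than CBP2 and CBP3. Of all 24025 other probe sets, 0 lay within 0.5 log2 units of Glp1, against 35 for RCA1, 64 for CBP2 and 27 for CBP3. Within 1 log2 unit lay 96 for Glp1, 88 for RCA1, 136 for CBP2 and 148 for CBP3. The nearest with a single gene was LOC107942981 (0.65), which read 12.53 in control and 10.78 in flooded leaf. After it came LOC107925162 (0.82), with 12.27 and 11.58, and GhCASPL2A1, whose symbol is that of the Casparian strip membrane protein-like family (0.85), with 10.94 and 11.06. As likeness was measured over all arrays, these leaf values helped to choose the genes, so no test of their leaf changes is given or read.

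Besides RCA1, the list of photosynthesis and plastid function held 10 probe sets of 8 genes, none of them a gene of light harvesting or carbon fixation by its symbol. Their control leaf minus control root differences ran from -3.21 to 2.52, with 3 of 10 above 0, against 18.2% of all probe sets. With arrays centred on their medians these were 5 of 10 and 37.3%. The highest leaf signal was that of CSD2a, a copper and zinc superoxide dismutase (leaf mean 13.04), followed by KAS2-1, a fatty acid synthase component (10.01), KASIII (8.94), sAPX, the stromal ascorbate peroxidase (8.51), and FatB1 (7.70), with FeSOD at 7.35. The second probe set of KAS2-1 had a leaf mean of 4.06. Its control leaf minus control root difference was -1.01, against 1.49 for the brighter probe set. In limma 0 rose and 0 fell in leaf (median change -0.16, against -0.04 over all probe sets). Of all probe sets 2.21% rose and 3.05% fell there. In root 1 fell, 3FAD, a desaturase of plastid lipids (-1.62, limma adjusted p = 0.014), and 0 rose (median 0.18, against -0.02). Of all probe sets 4.28% fell and 6.40% rose in root. The call of 3FAD was lost with only the root arrays (limma adjusted p = 0.097) and without flooded root replicate 2 (-1.16, limma adjusted p = 0.059).

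CAT2, a catalase that clears the hydrogen peroxide of photorespiration and was the only probe set of its list, had its highest signals in leaf and was well above the reporters in root. It read 14.16 in control leaf, 14.44 in flooded leaf, 10.81 in control root and 10.30 in flooded root. Neither change passed (0.29 and -0.51, limma adjusted p = 0.67 and 0.34). Of the cupins other than Glp1, 4 probe sets of 3 seed storage protein genes, 0 were called in root (10.7% of all probe sets). In leaf 1 was called as lower (3.05% of all probe sets) and 0 as higher (2.21%). The fall was in LEGB, a legumin, from 8.11 to 5.99 (log2 change -2.12, SE 0.36, limma adjusted p = 0.021), a call lost without either flooded array of root or leaf or control leaf replicate 1 (limma adjusted p = 0.050 to 0.19). The second probe set of LEGB stood at -0.31, LegA at -0.08 and vicB_At, a vicilin, at -0.25, with leaf means of 2.98 to 3.41.

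The list of genes of root and vascular tissue, which served as the measure of the other tissue, held 24 probe sets of 19 genes. Its mean signal was 8.25 to 8.33 on the control root arrays, 7.25 to 7.38 after root flooding and 6.12 to 6.31 on leaf arrays. Control leaf was below control root by at least 1 log2 unit in 18 of the 24 (53.6% of all probe sets), or in 11 of the 24 (16.7%) with arrays centred on their medians, most in cdn1, the delta-cadinene synthase of gossypol synthesis (-7.53). In root 9 of the 24 fell and 1 rose, where 4.28% and 6.40% of all probe sets did. Among the falls were POX10, a peroxidase (-3.15), a second peroxidase (LOC107905931, -1.26), CCoAMOT2 (-1.78) and an expansin (LOC107885990, -1.73). Both probe sets of EXPA3D fell too (-2.95 and -2.24), but these were higher in control leaf than in control root (by 1.40 and 0.65) and so do not mark root here. Nor does LOC107905931, whose control leaf minus control root difference was -0.58, against a median of -1.08 over all probe sets. The peroxidase pod1, not called in root, was also higher in control leaf (by 0.48). The rise was that of pod7, a peroxidase (0.78, limma adjusted p = 0.029). In leaf 2 rose, NIP6.1 and cdn1, and POX10 fell (2.21% and 3.05% of all probe sets). The falls in root numbered 2 and 3 without flooded root replicate 1 and 2, 2 with the root arrays alone and 12 without control root replicate 2, and in leaf 0 passed without any 1 of the leaf arrays. In leaf the highest signals of the list were those of LOC107905931 (leaf mean 12.63), EXPA3D (9.72 and 9.47), pod10 (8.98), pod1 (8.33) and CCoAMOT2 (8.13). What part a change in the make-up of the tissue samples has in the rise of CBP3 was not tested, and fewer cells of a type cannot be told apart from less RNA per cell in whole organs.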

How the data were processed

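The deposited values are log2 signals of 24132 probe sets in 1 table of the authors. The submitters' processing notes list RMA and limma, without version, role or order. RMA is a method of background correction, normalization and probe summary, and it compresses small signals. The table had 0 columns without a sample. The 103 probe sets that carry the manufacturer's prefix for controls were removed. The 52 reporter probe sets do not carry it and stayed among those tested. No filter was used. Groups and replicate numbers came from the labels.

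Group means of all 8 arrays were fitted in limma 3.58.1 under R 4.3.3 (4 residual and 3.48 prior degrees of freedom). Contrasts were adjusted by the Benjamini-Hochberg method over 24029 probe sets at 0.05. The fit was tested on simulated data. Genes were named through the platform's probe table. All 697 probe sets with 1 gene in it matched RefSeq's gene table (assembly Gossypium_hirsutum_v2.1), where 324 have a name other than a locus number. That table gives no gene products, so lists were matched on gene symbols, with roles from their usual meaning, and a planned list of genes of the family of CBP2 and CBP3 had 0 members. The genes and lists were chosen with earlier results of these data known. Named from each list were genes past the threshold (at most 6 per comparison) and the 6 brightest in leaf, and the closest profiles were named for each gene (6 for RCA1, 3 for the others). The number of arrays limits the precision. Other settings tried were limma's trend and robust options, array weights, 3 scalings, a filter, a looser threshold, fits within a tissue, a replicate block and fits without single arrays. The bounds on brightness and root signal and the use of added control transcripts were chosen after values were seen.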

Additional observations from a re-analysis of the deposited data

Results flagged for a closer look

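CBP3 was marked for a closer look because its flooding change differed between the tissues: the leaf change minus the root change was -1.27, past the threshold in limma. This value equals the difference between the flooded tissues minus that between the control tissues, and the latter chose the gene, so it is a description and supports nothing.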

How the results depend on the processing

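All 4 genes kept their call in flooded leaf against flooded root, and none was called in leaf, under every alternative run. Fits without a flooded leaf array called almost no probe set in leaf, so the lack of a call there says little of these genes. With only the 4 root arrays 0 genes were called in root. Leaving out each array in turn gave 0 to 2 calls in root and 0 to 2 for the leaf change minus the root change. The labels do not say what a shared replicate number marks, and the deviations of same-numbered arrays correlated at -0.19 in leaf and 0.04 in root. With the replicate block 0 genes were called for the difference of changes, against 1 without it, and the calls over all probe sets went from 1262 to 811 in leaf. Exchanging the flooded leaf numbers, added after seeing the data, gave 1084. Signs turned only for changes that were not called. CBP3 in leaf stood at 0.0194 with arrays centred on their medians. CBP2 in root stood at -0.0028 and -0.0082 after quantile normalization over all arrays and within tissues, and between -0.34 and 0.47 as arrays were left out. Its difference of changes stood at 0.0602, 0.0628 and 0.0451 under these normalizations and median centring, and between -0.41 and 0.40 as arrays were left out. Glp1 in root ran from -0.13 to 0.22. Calls over all probe sets in leaf (1262) ran from 0 without flooded leaf replicate 1 to 3245 without either control root array, with 3034 under array weights, 2244 at an adjusted p under 0.1 and 2106 with the leaf arrays alone. In root (2566) they ran from 997 without flooded root replicate 1 to 6781 without control root replicate 1, with 1399 under array weights and 1021 with the root arrays alone. For the flooded tissues (19079) quantile normalization over all arrays gave 10770. For the difference of changes (1985) calls ran from 473 without flooded leaf replicate 1 to 5294 without control root replicate 1, with 3243 at an adjusted p under 0.1. A fit without 1 array also lacks that group's spread. Signals near the top of the range and those near the reporters limit what could be seen.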
